A study of Rattus norvegicus with 12 samples.

Results

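The comparison described here set RNA of the ribosome pellet against total RNA in rat primary cortical neurons that had been exposed to amyloid-beta (Aβ), the peptide that accumulates in plaques in Alzheimer's disease. It rests on 6 of the 12 libraries of the series, which were chosen by their labels and not by any measured value. The ribosome pellet libraries of Aβ-treated neurons carry the sample numbers 1, 5 and 9, and the total RNA libraries of Aβ-treated neurons carry 3, 7 and 11. Each library is called below by its fraction and its sample number. The other 6 libraries came from vehicle-treated neurons (pellet 2, 6 and 10, total RNA 4, 8 and 12) and are not part of the main fit. They are given beside the Aβ values and enter the test of treatment by fraction. They also serve to rank and class genes by level, and as the reference of a regression. Neurons were taken from embryonic Sprague-Dawley rats, were kept for 28 days in vitro with the NMDA receptor antagonist APV in the medium, and received 100 nM synthetic rat Aβ, or HEPES buffer as vehicle, for the last 24 h. All groups received cycloheximide, an elongation inhibitor, shortly before lysis. The study describes its replicates as biological and the 2 fractions as paired, but the labels do not say which libraries came from the same cultures, and the fractions were compared without pairing.

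A ribosome moves along an mRNA while it makes protein, and an mRNA engaged by ribosomes is far heavier than the same mRNA alone. When cytosolic lysate is spun through a cushion of dense sucrose, ribosomes and the mRNAs held on them reach the pellet, while free mRNA tends to stay above it. Cycloheximide stalls elongating ribosomes and so keeps them on their mRNAs during lysis. Neurons rely on control at this step because much of their protein is made locally, in dendrites and at synapses. The difference between pellet and total RNA is thus read as a measure of ribosome association, with the limit that any other particle heavy enough to cross the cushion is pelleted as well. In bulk samples such as these, fewer cells of one type and less RNA per cell cannot be told apart.

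Genes are listed by Ensembl rat identifier, and 891 of the 12147 genes tested by an identifier that was given at the authors' annotation step (of the form Novel00098). The files do not pair identifiers with gene names, so the results are given by transcript length, expression level and identifier, and neither neuronal markers nor pathways could be looked up. Values are FPKM, fragments of a gene relative to both the length of its transcript and the depth of the library. Whole fragments and transcript lengths were recovered from the FPKM for all 12147 genes tested. Pellet libraries 1, 5 and 9 held 14.3 M, 20.04 M and 16.8 M mapped fragments, and total RNA libraries 3, 7 and 11 held 18.6 M, 17.5 M and 18.8 M. A detection limit of 3 fragments was assumed for counting error alone, equal to an FPKM between 0.0749 and 0.105 for a transcript of 2000 bases. Of the 12 libraries, 3 were made with a more efficient bead capture because of low RNA amounts. The sources used here do not say which, so the part of that step in any result was not tested.

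The pellet libraries resembled each other less than the total RNA libraries did. Over the 12147 genes, the correlation of log2 values was 0.963 to 0.974 between pellet libraries, 0.987 to 0.989 between total RNA libraries and 0.912 to 0.948 between a pellet and a total RNA library. These correlations are across genes, which are not independent replicates. The median standard deviation of a gene over 3 libraries was 0.21 on the log2 scale in the pellet and 0.11 in total RNA, and it was larger in the pellet for 77.2% of genes. Any 2 libraries of the same fraction were thus more alike than any 2 of different fractions.

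A large part of the transcriptome differed between the fractions. After the libraries were scaled by median-of-ratios factors, limma with Benjamini-Hochberg adjustment placed 5016 of 12147 genes (41.3%) at an adjusted p under 0.05. Of all 12147 genes, 2440 (20.1%) were called higher in the pellet and 2576 (21.2%) were called lower. Differences were mostly modest: the median log2 fold change was 0.66 in the genes called higher, or 1.58-fold, and -0.79 in those called lower, or 1.72-fold, with a median standard error of 0.15 over all genes. Changes of 2-fold or more were more often losses than gains, with 788 genes lower (6.49%) and 370 genes higher (3.05%). The pellet libraries all lay above the total RNA libraries for 3376 genes (27.8%) and all below them for 3346 genes (27.5%), and 4974 of these 6722 genes were also called by limma.

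The balance of gains and losses depended on the scaling, since the scaling fixes which genes count as unchanged. With FPKM as deposited, 21.7% of the calls were higher in the pellet, with 1138 genes higher and 4106 lower, against 48.6% after scaling. The median log2 fold change of all genes was -0.23 on the deposited values and 0.01 after scaling. Directions below are relative to the median gene. Of the 5016 genes called after scaling, 3714 were also called on the deposited values, and none of these changed sign. The 2 scalings differ mainly by a shift common to all genes, so a change of sign among genes called under both was unlikely in any case.

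**Figure D1:**
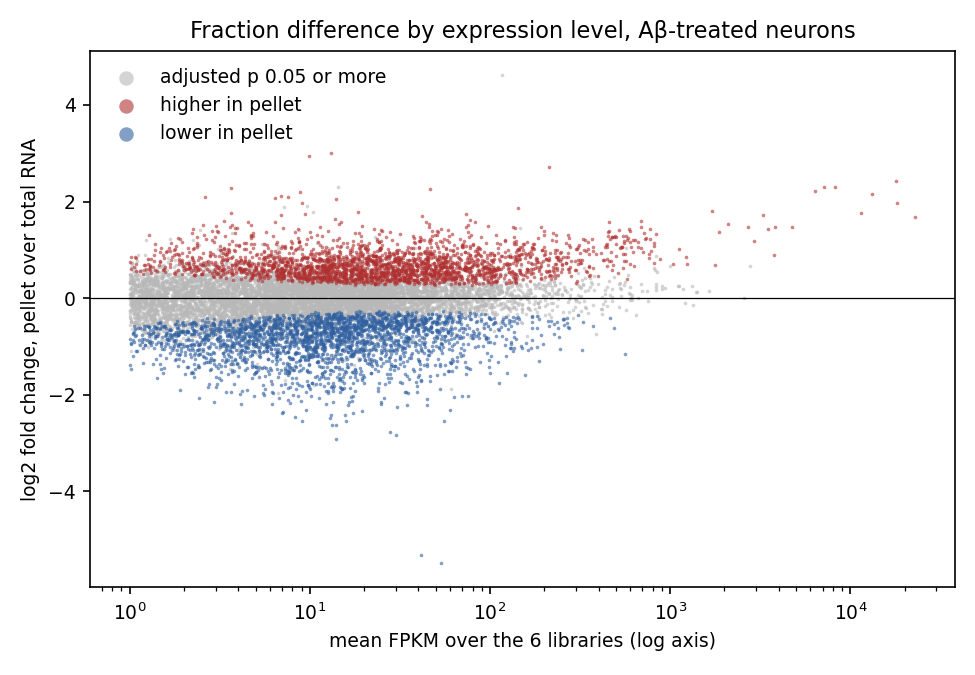
Log2 fold change of the ribosome pellet over total RNA (vertical axis) against mean FPKM over the 6 libraries of Aβ-treated neurons (horizontal log axis), with 1 point for each of 12147 genes. The 2440 genes called higher are red, the 2576 called lower are blue and the rest are grey, and most genes at the right-hand edge are red, on an axis that the pellet values themselves enter.

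The differences found in Aβ-treated neurons were also present in the libraries of vehicle-treated neurons. These libraries shared variation with the Aβ libraries by order of sample number, as given at the end, so they are not an independent replication. Of the 370 genes higher by 2-fold or more with Aβ, 368 were positive in vehicle as well and 338 were called higher there, where limma called 15.6% of all genes higher. Their median log2 fold change was 1.18 with Aβ and 1.30 with vehicle. Of the 788 genes lower by 2-fold or more, 786 were negative in vehicle as well and 729 were called lower there, where 16.5% of all genes were. Their medians were -1.29 with Aβ and -1.50 with vehicle. The genes were chosen for a large change with Aβ, which tends to raise their Aβ value. Both medians were nearer to 0 with Aβ than with vehicle. The treatments were scaled and fitted separately, and no library was left out of the vehicle fit. The order of these medians was thus not tested.

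With vehicle, 3895 genes (32.1%) passed the threshold, against 5016 with Aβ. The Aβ count fell to 3026, 3151 or 3205 without total RNA 3, 7 or 11, and was 4724, 3859 or 5827 without pellet 1, 5 or 9. No library was left out of the vehicle fit, so the order of the 2 counts was not tested. The difference between the treatments, tested as such, reached no gene. The limma interaction of treatment and fraction gave 0 genes (0.0%) at an adjusted p under 0.05, where the smallest adjusted p was 0.999996. Without adjustment, 81 genes (0.667%) had a p under 0.05. Its standard error had a median of 0.26 in log2 units, which includes variation that Aβ and vehicle libraries shared by order of sample number, as given at the end. A limma fit with run effects within each fraction, chosen after seeing the data, lowered that median to 0.17 and again called 0 genes (smallest adjusted p = 0.917), with 305 genes (2.51%) at an unadjusted p under 0.05. With no effect at all, a proportion of 0.05 of the genes would be expected at that threshold, and both shares lie below it. Treatment effects near the size of these errors were not detectable in single genes with 3 libraries a group. Larger effects can also be missed after adjustment over 12147 genes.

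The most abundant transcripts of the culture were mostly higher in the pellet. Ranked by the vehicle total RNA libraries, which take no part in the comparison, the first 8 genes were all called higher by limma with Aβ, where 20.1% of all genes were (log2 fold changes from 0.89 to 2.42, adjusted p from 0.00298 to 0.0483). Of the first 20 in that ranking, 15 were higher, none was lower and 5 were not called, with log2 fold changes from -0.14 to 2.42 and a median of 1.47. Ranked instead by mean FPKM over the 6 libraries compared, the first 8 genes share 6 members with that list. This second ranking uses the pellet values, so a gain helps a gene to enter it, and the values that follow describe it without a test of the list. Its 8 genes were higher in the pellet by 3.20-fold to 5.36-fold as fitted by limma (adjusted p from 0.00170 to 0.0123). Their transcripts are short, from 681 to 1545 bases. The most abundant of all, of 1545 bases, had scaled FPKM of 28826, 38262 and 42881 in pellets 1, 5 and 9 and of 11166, 10946 and 11820 in total RNA 3, 7 and 11. Every pellet library thus held more of it than any total RNA library, with a log2 fold change of 1.68 (SE 0.39, limma adjusted p = 0.0123). The third in rank, of 681 bases, had the largest gain of the 8. Its scaled FPKM was 21375, 41288 and 34401 in the pellets and 5426, 4888 and 7418 in total RNA, a log2 fold change of 2.42 (SE 0.40, limma adjusted p = 0.00367). In vehicle-treated neurons the log2 fold changes of the 8 genes ran from 1.80 to 2.69.

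Among the next 12 genes by mean FPKM, 10 were called higher, none was called lower and 2 were not called. The gene of rank 17, of 625 bases, differed little between fractions, with scaled FPKM of 2576, 3140 and 1997 in the pellets and 2502, 2335 and 2700 in total RNA (log2 fold change 0.01, SE 0.23). The gene of rank 15, of 896 bases, gave 1510, 3207 and 6328 in the pellets against 1717, 2063 and 2197 in total RNA, so that pellet 1 fell below every total RNA library while pellets 5 and 9 rose above them (log2 fold change 0.66, SE 0.47, limma adjusted p = 0.290). High abundance alone therefore did not go with a gain in every case.

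The pellet libraries were also more concentrated on few genes. The first 8 genes by vehicle total RNA held 13.1%, 18.4% and 18.3% of the fragments listed in pellets 1, 5 and 9, but 5.51%, 5.43% and 5.73% in total RNA 3, 7 and 11. The 20 most abundant genes of each library held 23.97% ± 3.84 (SD, n = 3) in the pellet and 9.30% ± 0.269 (SD, n = 3) in total RNA. The number of genes that together held 50% of the fragments was 580, 408 and 428 in the pellets and 937, 927 and 877 in total RNA. Neither measure overlapped between the fractions, and pellet 1 lay nearest to total RNA in both. A two-sided exact permutation test gave p = 0.1 for each, the smallest that 3 against 3 libraries allow, and 0.133 after Benjamini-Hochberg adjustment over 4 library measures.

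**Figure D2:**
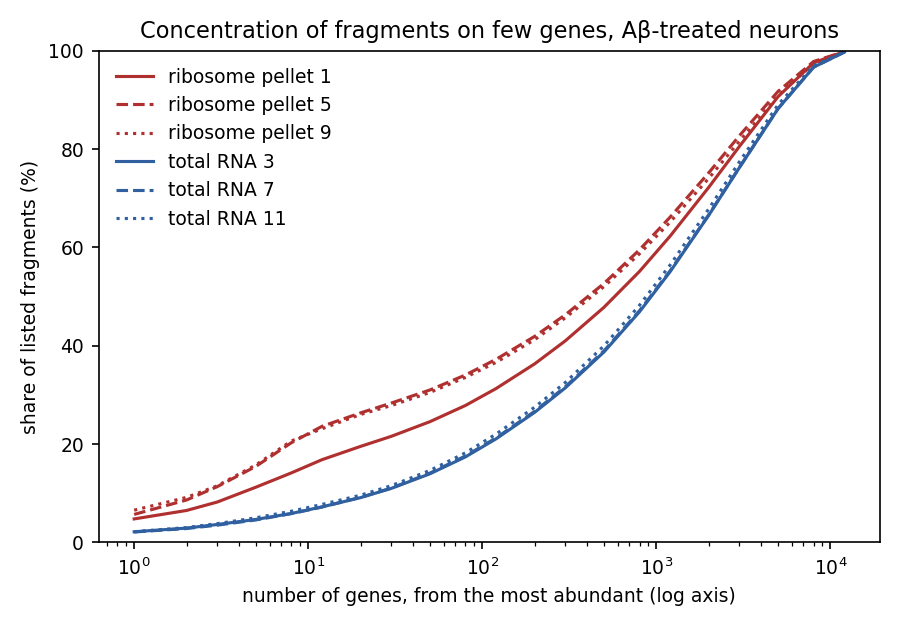
Share of listed fragments (vertical axis, %) held by the most abundant genes of each library, against the number of genes counted from the top (horizontal log axis). Red lines are the 3 pellet libraries and blue lines the 3 total RNA libraries, and at 20 genes the pellets reach 19.5 to 26.4% while total RNA reaches 9.11 to 9.61%.

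Outside the abundant genes, expression level in vehicle total RNA and the fraction difference were barely related among the genes tested. Classes were cut by mean FPKM in the vehicle total RNA libraries, so that the values compared play no part in the classing. Of 87 genes at 500 FPKM or more, 34 were higher in the pellet (39.1%) and 3 were lower, with a median log2 fold change of 0.30 and medians of 0.33, 0.42 and 0.28 in pellets 1, 5 and 9. From 100 to under 500 FPKM, 37.3% of 783 genes were higher and 18.1% lower, with a median of 0.18. Below that level the medians lay near 0, at -0.00 for 3768 genes of 20 to under 100 FPKM, -0.03 for 4434 genes of 5 to under 20 and 0.03 for 3075 genes under 5. Classing by mean FPKM over the 6 libraries compared, which a gain in the pellet itself raises, gave rising medians. They were -0.07 at 1 to under 5 FPKM, -0.05 at 5 to under 20, 0.07 at 20 to under 100 and 0.31 at 100 to under 500. In 119 genes at 500 FPKM or more the median was 0.84. Weak genes rest on fewer fragments, so shares of genes called are not comparable between these classes at equal depth.

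Transcript length ordered the genes as well. Relative to the median gene, short transcripts gained and long ones lost in the pellet. Of 2084 genes with transcripts under 1000 bases, 694 were higher (33.3%) and 326 lower (15.6%). Their median log2 fold change was 0.26, or 0.02 with FPKM as deposited. Of 4064 genes of 1000 to under 2000 bases, 24.5% were higher and 15.5% lower, with a median of 0.11 that becomes -0.13 with FPKM as deposited. The balance turned beyond that length. Genes of 2000 to under 4000 bases, 4375 in number, were higher in 14.3% and lower in 23.6% (median -0.06), and 1462 genes of 4000 to under 8000 bases were higher in 8.003% and lower in 34.7% (median -0.22). Of the 162 genes with transcripts of 8000 bases or more, 8 were higher (4.94%) and 81 were lower (50%), with a median of -0.45. Genes called higher had a median length of 1459.5 bases, those called lower 2498.5 and those not called 2029.

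The length pattern was seen in each pellet library. Against the mean of the total RNA libraries, transcripts under 1000 bases had median log2 differences of 0.15, 0.36 and 0.28 in pellets 1, 5 and 9, and those of 8000 bases or more had -0.47, -0.58 and -0.35. The slope was thus steepest in pellet 5. In vehicle-treated neurons the medians from the shortest to the longest class were 0.33, 0.15, -0.08, -0.31 and -0.60. Within each library, the median log2 level of the longest class minus that of the shortest was -0.78, -0.90 and -0.79 in pellets 1, 5 and 9 and -0.31, -0.22 and -0.40 in total RNA 3, 7 and 11. The groups did not overlap (two-sided exact permutation p = 0.1, the smallest possible, adjusted p = 0.133 over 4 measures).

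**Figure D3:**
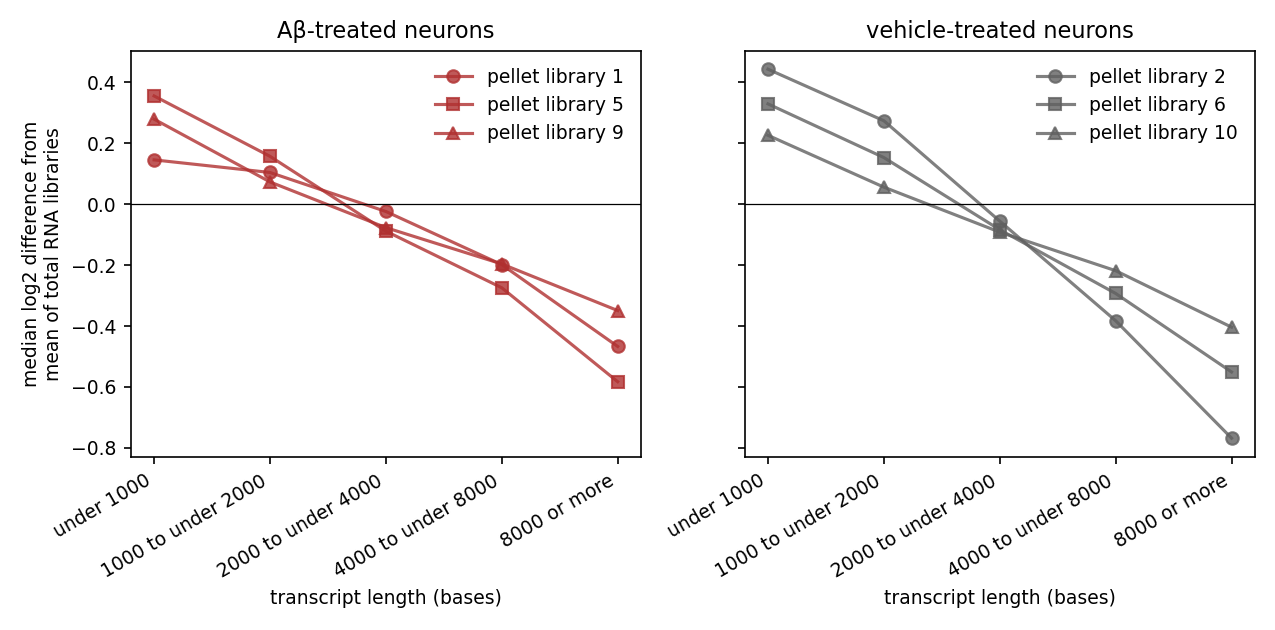
Median log2 difference of each pellet library from the mean of the total RNA libraries of the same treatment (vertical axis) by class of transcript length in bases (horizontal axis). Each line is 1 library, with Aβ-treated neurons on the left and vehicle-treated neurons on the right, and every line falls from above 0 in transcripts under 1000 bases to below 0 in those of 8000 bases or more.

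Length and level are linked, since the median mean FPKM was 12.4 in the shortest class and 8.34 in the longest, and the length pattern was therefore also read within bands of mean FPKM over the 6 libraries. Among genes of 20 to under 100 FPKM, the medians from the shortest to the longest class were 0.43, 0.16, -0.06, -0.20 and -0.92, the last over 27 genes. Among genes of 5 to under 20 FPKM they were 0.06, 0.08, -0.06, -0.25 and -0.51, so that the 2 shortest classes lay close together and the decline began above 2000 bases. Spearman correlations of log2 fold change are given as a description over the 12147 genes tested, which share their libraries. They were -0.255 with transcript length, 0.0137 with mean FPKM in vehicle total RNA and 0.157 with mean FPKM over the 6 libraries. The filter on mean FPKM over the 6 libraries compared enters these values too. FPKM divide by length, and how evenly reads covered a transcript, or RNA quality, was not tested.

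Loci with identifiers from the annotation step had a higher median difference than annotated genes, while their share of the libraries overlapped between the fractions. Of 891 such loci tested, 217 were higher in the pellet (24.4%) and 144 lower (16.2%), with a median log2 fold change of 0.22, against 19.7% and 21.6% and a median of -0.00 in 11256 genes with Ensembl identifiers. With FPKM as deposited the medians were 0.02 for these loci and -0.24 for genes with Ensembl identifiers. The loci were weaker, with a median FPKM of 2.78 against 13.2. Together they held 1.70% ± 0.146 (SD, n = 3) of the listed fragments in the pellet and 1.77% ± 0.0714 (SD, n = 3) in total RNA (two-sided exact permutation p = 0.5).

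Of the 12147 genes tested, 16 were called higher and 50 called lower by limma with differences of 4-fold or more. None of them overlapped between the fractions, which a large change with a small adjusted p makes likely. Over all genes, 27.8% lay wholly above and 27.5% wholly below total RNA. The 16 included 5 of the 8 genes with the highest mean FPKM over the 6 libraries, and their median length was 748.5 bases, while the 50 had a median length of 1591 bases and no member above 75.5 in mean FPKM. In vehicle-treated neurons all 50 were called lower, where 16.5% of all genes were, with a median log2 fold change of -2.52. Of the 16, 15 were called higher there, where 15.6% of all genes were, and the median of the 16 was 2.43. Identifiers are given for the 2 genes at each end with a mean FPKM of at least 10, an adjusted p under 0.05 and no overlap.

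Of the 2 gains, the one with the smaller standard error was that of ENSRNOG00000033299, a transcript of only 204 bases. Its scaled FPKM was 496, 306 and 364 in pellets 1, 5 and 9 and 55.8, 59.9 and 56.4 in total RNA 3, 7 and 11. The mean of 389 ± 97.6 (SD, n = 3) in the pellet was 6.78-fold that of 57.4 ± 2.199 (SD, n = 3) in total RNA, and every pellet value was far above every total RNA value. The log2 fold change was 2.71 (SE 0.17, limma adjusted p = 0.00156), and it was 2.97 in vehicle.

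Novel00098, a locus of 1710 bases, had the largest fitted gain of the genes that met the rule, but 1 total RNA library stood apart. Scaled FPKM was 21.4, 25.6 and 20.6 in pellets 1, 5 and 9, which agree closely, and 0.278, 0.207 and 15.3 in total RNA 3, 7 and 11. Total RNA 11 held 528 fragments of the locus where total RNA 3 and 7 held 10 and 7. The log2 fold change was 2.998 (SE 0.90, limma adjusted p = 0.0315). Without total RNA 11 it was 4.22 (adjusted p = 0.00130), and the limma call was lost without pellet 1 (adjusted p = 0.0668), 5 (0.0895) or 9 (0.0556), or without total RNA 3 (0.101) or 7 (0.0985). The vehicle libraries had the same form, with 23.5, 28.9 and 18.3 in pellets 2, 6 and 10 and 0.435, 0.443 and 15.7 in total RNA 4, 8 and 12.

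At the other end, ENSRNOG00000037911 and ENSRNOG00000051257 were almost confined to total RNA in these 6 libraries. ENSRNOG00000037911, of 758 bases, had scaled FPKM of 0.571, 1.05 and 0.434 in pellets 1, 5 and 9, from 6, 14 and 5 fragments, and of 174, 27.1 and 83.9 in total RNA 3, 7 and 11, from 2769, 405 and 1282 fragments. Its log2 fold change was -5.49 (SE 0.57, limma adjusted p = 0.00156), and it was -5.73 in vehicle. ENSRNOG00000051257, of 612 bases, had 0, 0.837 and 0.753 in the pellets and 134, 21.9 and 65.4 in total RNA, with a log2 fold change of -5.32 (SE 0.58, limma adjusted p = 0.00162) and of -5.61 in vehicle. Within total RNA both were highest in library 3 and lowest in library 7. In vehicle the first had 169, 28.9 and 91.0 in total RNA 4, 8 and 12 and the second had 136, 22.9 and 57.5. For the 4 genes with identifiers the limma interaction of treatment and fraction had an adjusted p of 0.999996.

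**Figure D4:**
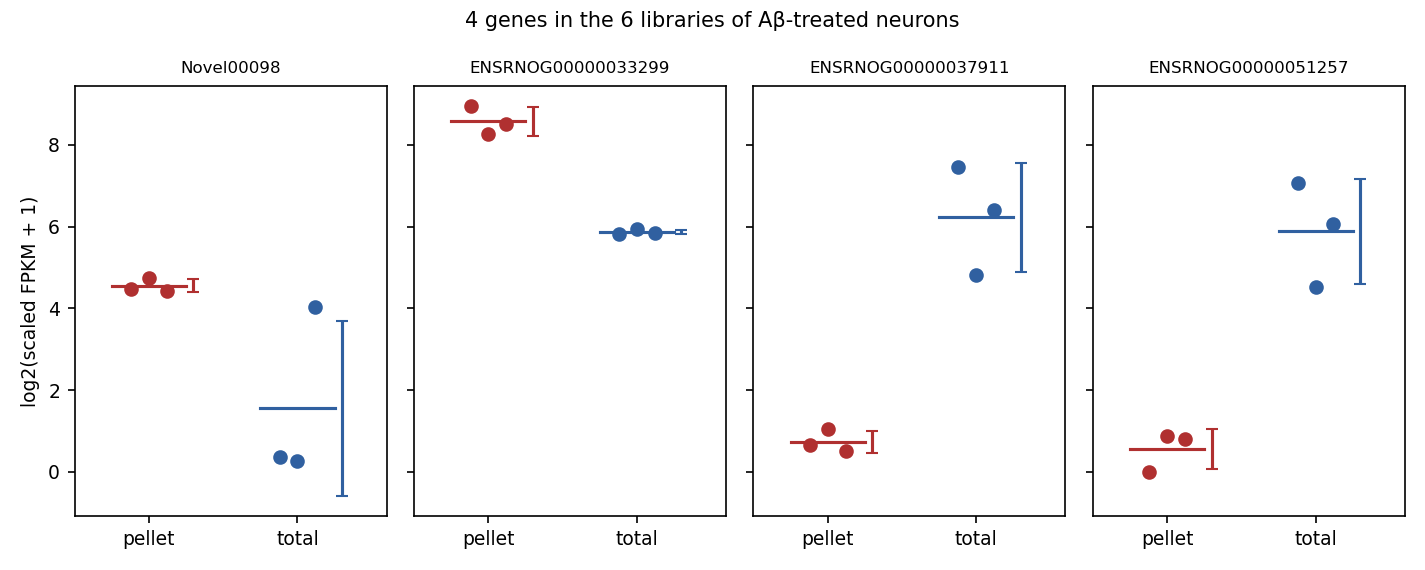
Log2(scaled FPKM + 1) of 4 genes (vertical axis) in the 3 pellet libraries (red) and 3 total RNA libraries (blue) of Aβ-treated neurons, with 1 panel for each gene. Points are libraries in the order of their sample numbers, horizontal lines are means and error bars are SD with n = 3. ENSRNOG00000033299 shows the tightest total RNA values, and 1 total RNA library of Novel00098 lies near the pellets.

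By fragments that were not scaled, near absence from the pellet was found in 9 genes and near absence from total RNA in 0. Depth was lowest in pellets 1 and 9, and pellet fragments were concentrated on few genes, and the part of either in this result was not tested. The rule was at most 3 fragments over the 3 pellet libraries and at least 10 in each total RNA library. It found 9 of the 13245 genes with at least 10 fragments in each total RNA library. These had 10 to 30 fragments in a total RNA library, and 1 of them was at 0 in all pellets. In the vehicle libraries, 7 of the 9 had fewer fragments in every pellet than in any total RNA library, as did 45.8% of the 13245 genes with at least 10 fragments in each Aβ total RNA library. Their pellet sums ran from 1 to 21 fragments. The converse rule, with the fractions exchanged, found 0 genes, and the number of genes eligible for it was not counted. These genes are weak, and 2 of the 9 reached a mean FPKM of 1 and were tested.

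The largest fitted difference that limma did not call was a gain of 4.62 on the log2 scale (SE 1.94, adjusted p = 0.0905) in a gene of 701 bases, chosen here after its values were seen. Its scaled FPKM was 0.206, 26.1 and 753 in pellets 1, 5 and 9, and 0.0679, 0.217 and 0.283 in total RNA 3, 7 and 11. Pellet 1 overlapped total RNA while pellet 9 lay far above every other library of Aβ-treated neurons. The vehicle pellets 2, 6 and 10 had 0, 17.3 and 797, and vehicle total RNA 4, 8 and 12 had 0.141, 0.203 and 0.

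Values such as these followed the order of the sample numbers, which form runs of 4 with 1 library of each group. Deviations of the genes from their group means correlated at 0.407, 0.522 and 0.699 between the Aβ and vehicle pellets of the same run and from -0.514 to 0.110 between pellets of different runs. The same held in total RNA, at 0.410, 0.538 and 0.511 within a run and from -0.383 to -0.111 between runs. Between a pellet and a total RNA library of the same run and treatment the correlations were -0.0024, -0.057 and -0.0059. Deviations thus went together between treatments but not between fractions. Because deviations from a mean of 3 sum to 0, unmatched pairs lean to negative values, and the labels do not say what a run is.

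The size of the fraction difference also varied between the pellets. Regressed on the fraction difference of vehicle-treated neurons across genes, the difference of a pellet library from total RNA had a slope of 0.777 in pellet 1, 0.993 in pellet 5 and 0.693 in pellet 9, and of -0.015 to 0.011 in the total RNA libraries. The standard deviation over genes of the same difference was 0.67, 0.78 and 0.59 in pellets 1, 5 and 9. Pellet 5 was thus the farthest from total RNA and pellet 9 the nearest by both values, whereas in concentration on few genes it was pellet 1 that lay nearest.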

How the data were processed

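Total cytosolic RNA and RNA of sucrose cushion pellets were sequenced from polyadenylated libraries, with 3 libraries in each of 4 groups. Groups were taken from the sample titles. The study calls its replicates biological and the sequencing of the fractions paired. The labels tie no library to a culture and no pellet to a total RNA library, so the main fit was unpaired.

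The submitters' processing notes name CASAVA 1.8, Bowtie2 2.2.3, TopHat2 2.0.12, HTSeq 0.6.1 and DESeq. The authors aligned trimmed paired-end reads, counted fragments on genes and deposited FPKM, without scaling between libraries. The genome build, annotation version and strand setting are not given in the sources used here, so overlapping and antisense genes, and genes with near-identical copies, are uncertain. The table held 25425 genes, and 1 incomplete row was dropped.

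FPKM are whole multiples of the value of 1 fragment. Mapped fragments per library and whole transcript lengths that made all values of a gene whole (within 0.003) were recovered, which was tested on simulated data. Lengths are those implied by the FPKM. Listed genes held 89.6 to 91.1% of mapped fragments in the 6 libraries. FPKM of 12147 genes with a mean of at least 1 over the 6 libraries were scaled by factors from the median of ratios (0.876 to 1.13), and log2(scaled FPKM + 1) was fitted in R 4.3.3 by limma 3.58.1, using lmFit and eBayes with an intensity trend, Benjamini-Hochberg adjustment over all genes and a threshold of 0.05. Fold changes on this scale understate those of weak genes. The limma fit was tested on simulated data. The vehicle libraries were scaled and fitted separately on the same genes, and the interaction came from 1 fit of 12 libraries. Single values per library were compared by exact permutation over 20 splits (scipy 1.17.1, Python 3.11.15).

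Of the identifiers, 0 matched the RefSeq gene table, so planned gene lists, cell type markers, the mitochondrially encoded share and protein features could not be computed, and identifiers are printed for at most 2 genes in each direction. These were to be the largest changes with an adjusted p under 0.05, a mean FPKM of at least 10 and no overlap. The comparison, lists and rules were chosen with earlier results of these data known, and the classes by length, level and identifier after seeing the data. Alternatives covered scaling, pseudocount, filter, trend, weights, threshold, run block, pooled fit and each library left out. Limma with voom weights, removal of each library's length trend, run effects within each fraction, and ranking by vehicle total RNA were chosen after seeing the data.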

Additional observations from a re-analysis of the deposited data

How the results depend on the processing

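The 5016 genes that differed between the fractions became 1158 with an added log2 fold change of at least 1 (370 higher, 788 lower). Leaving out each library in turn gave 3026 to 5827 genes, with 3026, 3151 and 3205 without total RNA 3, 7 and 11, where the 2 libraries left are assumed to vary like the 3 of the other group. The remaining 11 alternatives stayed within 1.5 times, from 4231 when a mean FPKM of 5 was required to 5251 under array weights, and no gene called both ways changed sign. With the runs of 4 sample numbers as a replicate block, 4327 genes passed (2052 higher, 2275 lower). The study describes the fractions as paired, but the labels give the groups no shared replicate numbers, so this pairing by run is an assumption, and pellet and total RNA libraries of a run did not deviate together. The interaction gave 0 genes in all 22 alternatives, run effects within each fraction included, with 40 to 887 genes at an unadjusted p under 0.05.

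ENSRNOG00000033299, ENSRNOG00000037911 and ENSRNOG00000051257 kept their direction and call in all 17 alternatives run for each. Novel00098 kept its direction in all 17, but its limma adjusted p was 0.0680 with no filter, where more genes were tested, and 0.00130 to 0.101 over the libraries left out. The median log2 fold change of transcripts of 8000 bases or more minus that of transcripts under 1000 bases was -0.71, from -0.78 to -0.60 with a library left out, -0.95 with a mean FPKM of at least 5, and -0.04 once each library's length trend was removed, which takes the pattern out by construction. Gene lists and the mitochondrially encoded share were not run because identifiers could not be named. Depth limits weak genes: 1.09 to 3.005% of the genes tested had under 10 fragments in a library.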
